A study of Mus musculus with 8 samples.

Results

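The SLC25 carriers are the largest family of metabolite transporters of the mitochondrial inner membrane. Their members were taken as every gene in the deposited expression table whose symbol is Slc25a followed by a number, which gave 47 of the 23361 genes listed, and no pseudogene symbol was among them. Each carrier is built from repeated domains that open alternately towards the cytosol and the matrix, and most members exchange a defined substrate for another, so the family sets which nucleotides, carboxylates, amino acids, cofactors and metals pass between the 2 compartments. In T cells the family is known for passing ADP and ATP, for exporting the citrate from which lipids are made, and for the malate-aspartate shuttle that carries reducing equivalents of glycolysis into mitochondria. Transcript levels were compared between the Nrp-1+ and Nrp-1- subsets of iTreg.

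iTreg are regulatory T cells induced in culture, here from naïve CD4+ T cells of Foxp3-RFP reporter mice (labelled wild type) with beads carrying anti-CD3 and anti-CD28, TGF-β at 2 ng/ml and IL-2, given as 50 U/ml in the labels and in another unit in the study's methods. Cells of both groups were sorted for the RFP reporter and then split by surface neuropilin-1 (Nrp-1), with 4 libraries of Nrp-1+ iTreg and 4 of Nrp-1- iTreg, labelled as biological replicates 1 to 4. The labels give 3 days of culture in the protocol and day 5 in another field, and they do not say whether the replicates came from separate mice or cultures, so p-values measure the spread between these libraries. The table gives FPKM, fragments scaled to the length of the transcript and to the mapped fragments of the library, which allows levels to be compared between genes. From the steps between low values, depth was about 14.6 M to 22.4 M fragments per library, and 3 libraries (Nrp-1+ replicates 2 and 4, and Nrp-1- replicate 1) stood apart by holding over 30% of their summed FPKM in short RNA genes. The sort was visible in the RNA: Nrp1 was at 22.0, 21.8, 21.6 and 20.4 FPKM in the 4 Nrp-1+ libraries and 4.95, 4.70, 5.31 and 4.83 FPKM in the 4 Nrp-1- libraries. Of 8 T cell and regulatory T cell markers 7 were listed and all were high (Cd4 315.0 and 325.1 FPKM, Foxp3 115.8 and 108.8 FPKM, as means of the Nrp-1+ and Nrp-1- libraries). At an adjusted p under 0.05, 3 of these 7 were higher in Nrp-1+ iTreg (Il2ra, Foxp3 and Cd28) and 2 were lower (Ctla4 and Cd3g). Il2ra was at 265.5 against 227.9 FPKM (adjusted p = 0.000108) and Ctla4 at 143.6 against 160.0 FPKM (adjusted p = 0.000938), both without overlap. Foxp3 had an adjusted p of 0.0245. The differences in Foxp3, Cd28 and Cd3g did not pass in some fits with a library left out. Of 14 markers of other cells, 11 stayed under 1 FPKM in every library with the B cell gene Ms4a1 at 0, Cd8b1, Itgam and Epcam did not, and the sum over the list ranged between 15.9 and 17.9 FPKM for Nrp-1+ and between 17.1 and 18.7 FPKM for Nrp-1- cells. Within that list the myeloid gene Itgam was 20.4% higher in Nrp-1+ iTreg (6.70 against 5.56 FPKM, adjusted p = 0.00136) and the CD8 chain Cd8b1 was lower (7.86 against 10.0 FPKM, adjusted p = 0.0119), both without overlap. All 5 proliferation markers were higher in Nrp-1+ iTreg, and their sum was 1025 to 1063 FPKM against 583.5 to 601.0 FPKM. The part of these markers in the carrier results was not tested.

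Of the 47 carriers, 35 averaged 1 FPKM or more across the libraries and were tested. Their mean levels ran from 1.40 FPKM for Slc25a13 to 382 FPKM for Slc25a5, with 3 carriers at 50 FPKM or more, 22 between 5 and 50 FPKM, and 10 below 5 FPKM. The family summed to between 1269 and 1300.0 FPKM in the Nrp-1+ libraries and between 1246 and 1270.4 FPKM in the Nrp-1- libraries, and these ranges overlapped. As a share of each library's summed FPKM without short RNA genes, the family made up 0.184% to 0.193% of the Nrp-1+ and 0.173% to 0.183% of the Nrp-1- libraries, and these ranges did not overlap. This share depends on the summed FPKM of the other genes as well as on the family, whose own sums overlapped. Neither measure was tested. The ADP/ATP carriers Slc25a5 and Slc25a4 and the phosphate carrier Slc25a3 together made up 64.7% to 65.9% of the family's summed FPKM in each library. Of the 12 carriers left out of the test, Slc25a31 (the ADP/ATP carrier of germ cells), Slc25a34 and Slc25a54 were listed at 0 in all libraries. Only Slc25a53 and Slc25a27 reached 0.5 FPKM in any library. Slc25a53 ranged from 0.498 to 0.884 FPKM and Slc25a27, a brain-enriched uncoupling-like protein, from 0.275 to 0.952 FPKM. In a fit without the filter Slc25a27 had an adjusted p of 0.156. The others (Slc25a2, Slc25a18, Slc25a21, Slc25a41, Slc25a43, Slc25a47 and Slc25a48) did not exceed 0.437 FPKM.

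**Figure D1:**
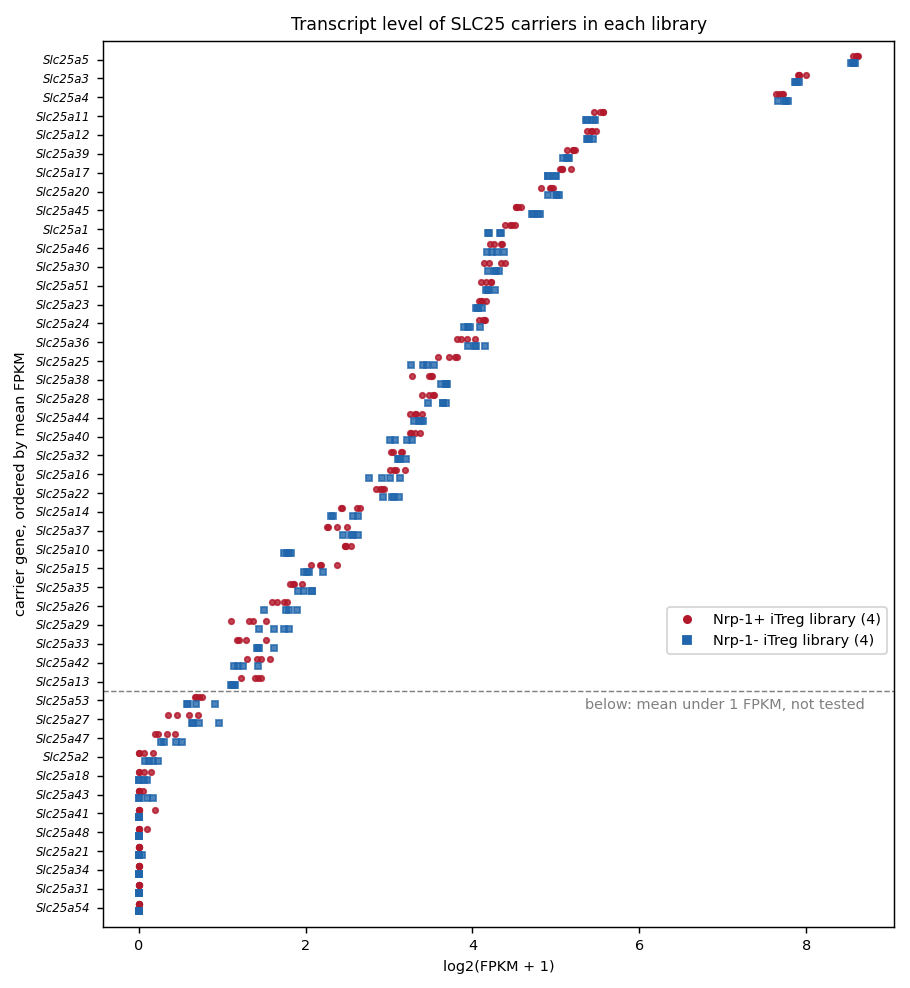
log2(FPKM + 1) of 46 of the 47 SLC25 carriers in each library, with 1 symbol per library (circles, Nrp-1+ iTreg; squares, Nrp-1- iTreg) and genes ordered by mean FPKM. The 3 highest carriers stand clear of all others, and the 12 carriers under the dashed line averaged less than 1 FPKM and were not tested.

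A difference was called at an adjusted p under 0.05 in limma's moderated test on log2(FPKM + 1), adjusted over all 10467 genes tested. By this rule 7 carriers were higher and 5 were lower in Nrp-1+ iTreg, and 23 did not pass. The 12 called carriers are 34.3% of those tested, whereas 40.9% of all genes tested were called, 20.9% as higher and 20.0% as lower. The share of carriers called was thus below the background of the whole comparison, and nothing in these counts sets the family apart. None of the 35 tested carriers differed by 2-fold. The median log2 fold change of the tested carriers was 0.020 and that of all genes −0.016, and the median size of the change without its sign was 0.13 for carriers and 0.12 for all genes. For 7 carriers (20.0%), all of them called, no Nrp-1+ library overlapped any Nrp-1- library, against 39.5% of all genes. After each library was corrected for GC content and transcript length, 5 carriers were higher and 9 lower (44.1% of all genes were called in that fit), and the split of calls over all genes moved from 51.1% higher to 40.0% higher. The median log2 fold change was then −0.023 for carriers, which turns its sign, and −0.046 for all genes. Without the 3 libraries rich in short RNA, which leaves 2 of Nrp-1+ and 3 of Nrp-1- iTreg, Slc25a10 and Slc25a24 were called as higher and Slc25a45, Slc25a38 and Slc25a33 as lower, and 26.3% of all genes were called. The other 8 calls were lost there (adjusted p 0.0532 to 0.317). In bulk RNA, a change in how many cells carry a transcript and a change in its amount per cell cannot be told apart.

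**Figure D2:**
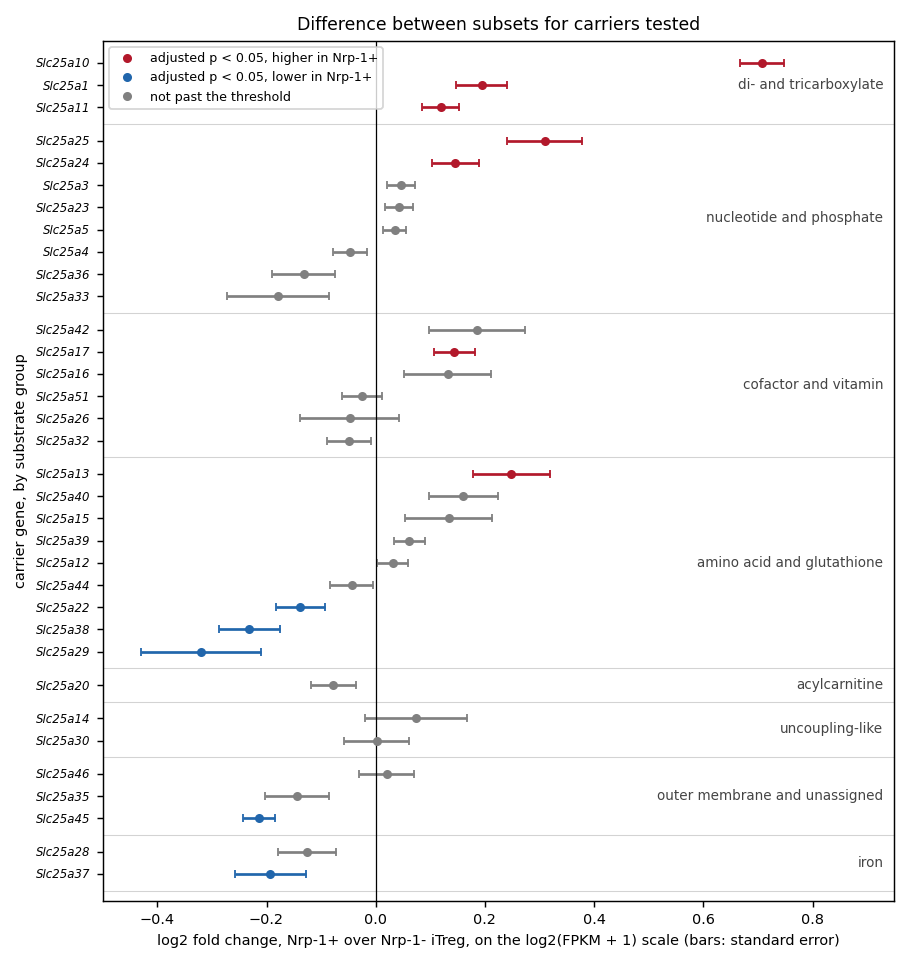
log2 fold change (Nrp-1+ over Nrp-1- iTreg, on the log2(FPKM + 1) scale) with its standard error for 34 of the 35 carriers tested, grouped by substrate, 4 libraries per group. Slc25a10 lies at 0.71, farther from 0 than any other carrier drawn, the 3 di- and tricarboxylate carriers all lie to the right of 0, and carriers that did not pass the threshold lie within 0.19 of 0.

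Among the carriers of di- and tricarboxylates, Slc25a10, Slc25a1 and Slc25a11 were higher in Nrp-1+ iTreg (3 of 3 tested, median log2 fold change 0.19, beside 20.9% of all genes called higher), and 2 of the 3 were with the GC and length correction. Without the 3 libraries rich in short RNA, Slc25a10 kept its call, and Slc25a1 and Slc25a11 lost theirs. The group is too small to set apart from other genes, and the oxodicarboxylate carrier Slc25a21 was not tested because of its low level. The 250 bases before an annotated transcript start of the 3 genes are shown because these members were called in the same direction, with Slc25a45, the lower carrier with the smallest adjusted p, for comparison. Sequences are from RefSeq on build GRCm38.p6, written 5′ to 3′ on the strand of the gene, and capitals mark matches on either strand to the CCAAT box (CCAAT) and the GC box (GGGCGG).
Slc25a10, chr11:120491587-120491836, plus strand: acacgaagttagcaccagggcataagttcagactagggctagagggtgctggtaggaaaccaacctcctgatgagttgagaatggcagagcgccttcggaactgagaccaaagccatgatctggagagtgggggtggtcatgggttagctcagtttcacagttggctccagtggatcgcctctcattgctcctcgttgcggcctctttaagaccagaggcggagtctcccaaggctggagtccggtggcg
Slc25a1, chr16:17928220-17928469, minus strand: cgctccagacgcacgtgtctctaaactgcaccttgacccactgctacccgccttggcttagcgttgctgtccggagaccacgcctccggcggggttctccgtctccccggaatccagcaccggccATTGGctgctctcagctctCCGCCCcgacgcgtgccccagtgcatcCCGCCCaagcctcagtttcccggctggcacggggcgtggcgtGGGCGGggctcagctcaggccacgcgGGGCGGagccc
Slc25a11, chr11:70647040-70647289, minus strand: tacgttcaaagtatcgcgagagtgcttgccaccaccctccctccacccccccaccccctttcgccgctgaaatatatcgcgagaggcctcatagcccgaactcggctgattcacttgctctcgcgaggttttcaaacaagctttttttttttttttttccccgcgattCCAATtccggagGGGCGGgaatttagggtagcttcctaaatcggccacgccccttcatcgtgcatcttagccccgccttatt
Slc25a45, chr19:5877572-5877821, plus strand: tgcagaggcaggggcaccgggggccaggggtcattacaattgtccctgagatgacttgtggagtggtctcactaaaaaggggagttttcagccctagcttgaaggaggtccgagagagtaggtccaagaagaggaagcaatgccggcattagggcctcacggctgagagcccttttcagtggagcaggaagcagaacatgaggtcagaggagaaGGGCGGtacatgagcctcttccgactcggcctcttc
The windows of Slc25a1 and Slc25a11 each hold 1 CCAAT box, with 4 and 1 GC boxes. That of Slc25a45 holds 1 GC box, and that of Slc25a10 holds neither motif. The Slc25a11 window lies inside the span of its gene (chr11:70644019-70647531), whereas those of Slc25a1 and Slc25a10 lie just before theirs. The NRF1 motif (GCGCNNGCGC, also searched on both strands) is in none of the 4 windows. Windows were found for 36 of the 47 carriers, 46 windows in all. A GC box was in 69.6% of them and in 32.7% of all 32851 promoter windows of that length, a CCAAT box in 45.7% and 33.8%, and an NRF1 motif in 4.35% and 4.98%. A GC box was in 77.1% of the 35 windows of tested carriers and in 45.5% of the 11 windows of carriers under the filter, which was not tested.

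Slc25a10, the dicarboxylate carrier that exchanges malate or succinate for phosphate, was the carrier that differed most. It was at 4.53, 4.84, 4.61 and 4.53 FPKM in replicates 1 to 4 of Nrp-1+ iTreg and at 2.43, 2.34, 2.55 and 2.47 FPKM in those of Nrp-1- iTreg, the order in which all library values are given. The lowest Nrp-1+ library lay well above the highest Nrp-1- library. Mean levels were 4.63 ± 0.147 and 2.45 ± 0.0882 FPKM (SD, n = 4), an increase of 89.1% with a log2 fold change of 0.71 ± 0.04 (SE) and an adjusted p of 4.59e-06. It stayed called with each library left out (adjusted p at most 4.9e-05) and after the GC and length correction (log2 fold change 0.69). The gene spans chr11:120491837-120501161, and its level rests on roughly 75.6 to 205 fragments per library, from the longest transcript's length. Of its 50-base stretches 9.07% also occur in the antisense gene Gm11788.

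Slc25a1, the citrate carrier, brings citrate to the cytosol in exchange for malate. It was at 21.1, 20.0, 20.9 and 21.9 FPKM in the Nrp-1+ libraries and at 17.1, 17.4, 19.2 and 19.2 FPKM in the Nrp-1- libraries, with no overlap. The mean rose by 15.1%, from 18.2 ± 1.13 to 21.0 ± 0.788 FPKM (log2 fold change 0.19 ± 0.05, adjusted p = 0.0108). The call for Slc25a1 was lost without the 3 libraries rich in short RNA (adjusted p = 0.0828). Slc25a11, which exchanges 2-oxoglutarate for malate in the malate-aspartate shuttle, was the highest of the 3 with 43.1, 46.3, 46.2 and 45.1 FPKM against 40.1, 42.4, 40.3 and 43.3 FPKM. Its groups overlapped, because replicate 1 of Nrp-1+ iTreg lay below replicate 4 of Nrp-1- iTreg. The increase was 8.77% (log2 fold change 0.12 ± 0.03, adjusted p = 0.0252). The call for Slc25a11 was lost without replicate 2 or 3 of Nrp-1+ iTreg or replicate 1 or 3 of Nrp-1- iTreg (adjusted p 0.0623 to 0.0667), and after the GC and length correction (adjusted p = 0.209). It was also lost after quantile normalization (adjusted p = 0.0924) and without the 3 libraries rich in short RNA.

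**Figure D3:**
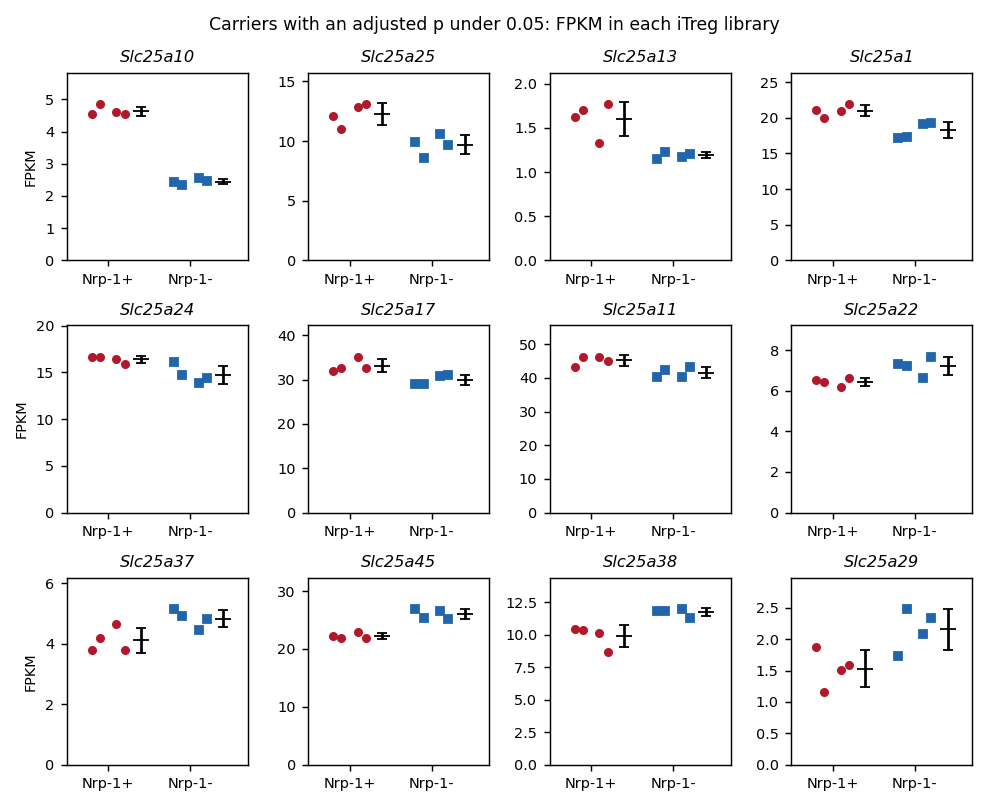
FPKM of the 12 carriers with an adjusted p under 0.05 in each of the 4 Nrp-1+ (circles) and 4 Nrp-1- (squares) iTreg libraries, with the mean and SD beside them; every axis starts at 0. For Slc25a10, Slc25a25, Slc25a13, Slc25a1, Slc25a17, Slc25a45 and Slc25a38 the groups do not overlap, and for the other 5 they do.

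Carriers of nucleotides and phosphate hold the most abundant members of the family. Of the 8 tested, 2 were higher and none was lower (over all genes 20.9% and 20.0%), and the median log2 fold change was 0.039. With the GC and length correction 2 were higher and 2 lower, and the median was −0.0030. The 2 higher carriers, Slc25a25 and Slc25a24, are calcium-regulated and exchange ATP-Mg for phosphate, which sets the adenine nucleotide pool of the matrix. Slc25a25 was at 12.1, 11.0, 12.8 and 13.1 FPKM in the Nrp-1+ libraries and at 9.95, 8.62, 10.6 and 9.65 FPKM in the Nrp-1- libraries. These groups did not overlap, and the mean rose by 26.3%, from 9.70 ± 0.827 to 12.3 ± 0.929 FPKM (log2 fold change 0.31 ± 0.07, adjusted p = 0.00798). Without the 3 libraries rich in short RNA the call was lost (adjusted p = 0.0532). Slc25a24 was at 16.6, 16.7, 16.4 and 15.9 FPKM and 16.1, 14.7, 13.9 and 14.4 FPKM. Its replicate 1 of Nrp-1- iTreg fell within the Nrp-1+ range, and the increase was 11.2% (log2 fold change 0.15 ± 0.04, adjusted p = 0.0267). Leaving out any of replicates 1 to 3 of Nrp-1+ iTreg or 2 to 4 of Nrp-1- iTreg ended that call (adjusted p 0.0591 to 0.0681). The related Slc25a23 did not pass the test.

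Slc25a5, the ADP/ATP carrier typical of dividing cells, was the highest carrier, with 393.9, 387.3, 377.6 and 388.4 FPKM in the Nrp-1+ libraries and 371.3, 380.1, 381.5 and 377.3 FPKM in the Nrp-1- libraries. The ranges overlapped (adjusted p = 0.216). Its level is uncertain, because 46.6% of its 50-base stretches are shared with 9 other genes, most of all with Gm5560. Slc25a4, the ADP/ATP carrier best known from muscle and heart, was at 202.4, 198.8, 210.1 and 209.1 FPKM and 201.2, 215.3, 213.4 and 218.3 FPKM. It did not pass the test (adjusted p = 0.260), although with the GC and length correction it was called as lower (log2 fold change −0.09, adjusted p = 0.0214). Slc25a3, the phosphate carrier that feeds ATP synthesis and also brings in copper, was at 237.5, 240.2, 241.0 and 254.6 FPKM and 234.2, 236.4, 240.1 and 231.5 FPKM, again with overlap (adjusted p = 0.196). The carriers of pyrimidine nucleotides, needed for mitochondrial DNA and RNA synthesis, both overlapped between groups. Slc25a36 was at 15.3, 14.3, 13.1 and 13.6 FPKM and 16.8, 15.3, 15.5 and 14.4 FPKM (adjusted p = 0.101). Slc25a33 was at 1.31, 1.88, 1.27 and 1.43 FPKM and 1.67, 1.72, 2.08 and 1.70 FPKM (adjusted p = 0.159).

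Carriers of amino acids and of glutathione changed in both directions, 1 higher and 3 lower of 9 tested, with a median log2 fold change of 0.031, and the other 5 did not pass (over all genes, 40.9% were called). The median was 0.0041 with the GC and length correction. Slc25a13 (citrin), an aspartate-glutamate carrier of the malate-aspartate shuttle, was at 1.62, 1.70, 1.33 and 1.77 FPKM in the Nrp-1+ libraries and at 1.15, 1.23, 1.18 and 1.20 FPKM in the Nrp-1- libraries. The groups did not overlap, and Nrp-1+ libraries varied more among themselves. The mean rose by 35.0%, from 1.19 ± 0.0336 to 1.60 ± 0.191 FPKM (log2 fold change 0.25 ± 0.07, adjusted p = 0.0228). The call did not hold after quantile normalization (adjusted p = 0.0925) or without the 3 libraries rich in short RNA (adjusted p = 0.118). Slc25a13 was also not called with the replicate number as a block (adjusted p = 0.0579). Its paralogue Slc25a12 (aralar) was at 42.3, 42.0, 40.5 and 43.7 FPKM and 41.0, 42.5, 40.9 and 40.3 FPKM, which overlapped (adjusted p = 0.404).

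Slc25a38, which imports the glycine used for heme synthesis, was lower in Nrp-1+ iTreg. It was at 10.4, 10.3, 10.1 and 8.64 FPKM against 11.9, 11.8, 12.0 and 11.3 FPKM, without overlap, and replicate 4 of Nrp-1+ iTreg was the lowest library. The mean fell by 15.9% (log2 fold change −0.23 ± 0.06, adjusted p = 0.0113). Slc25a29, a carrier of arginine and lysine, was low in both groups, at 1.88, 1.16, 1.50 and 1.59 FPKM and 1.72, 2.48, 2.08 and 2.33 FPKM. Replicate 1 of Nrp-1+ iTreg lay above replicate 1 of Nrp-1- iTreg, and the fall was 28.9% (log2 fold change −0.32 ± 0.11, adjusted p = 0.0477). This call was lost without any of replicates 2 to 4 of either group (adjusted p 0.0738 to 0.112). It was also lost with the replicate number as a block (adjusted p = 0.127). Slc25a22, a glutamate carrier, was at 6.53, 6.42, 6.19 and 6.65 FPKM and 7.30, 7.20, 6.62 and 7.68 FPKM. Only replicate 3 of Nrp-1- iTreg fell within the Nrp-1+ range. The mean fell by 10.5% (log2 fold change −0.14 ± 0.04, adjusted p = 0.0379), and the call was lost without replicate 1, 2 or 3 of Nrp-1+ iTreg or replicate 1, 2 or 4 of Nrp-1- iTreg (adjusted p 0.0647 to 0.0950).

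Slc25a39 and Slc25a40, which are needed for glutathione import into mitochondria, did not pass the test. Slc25a39 was at 34.0, 35.8, 36.0 and 36.4 FPKM and 34.8, 34.3, 34.1 and 33.0 FPKM in Nrp-1+ and Nrp-1- iTreg (adjusted p = 0.115). Slc25a40 was at 8.51, 9.38, 8.63 and 8.94 FPKM and 7.38, 8.68, 7.05 and 8.27 FPKM (adjusted p = 0.0726). Both pairs of groups overlapped. The ornithine carrier Slc25a15 and the branched-chain amino acid carrier Slc25a44 did not pass either.

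Slc25a37 (mitoferrin-1) brings iron into mitochondria, mainly in erythroid cells, and Slc25a28 (mitoferrin-2) does so in other cells. Slc25a37 was at 3.81, 4.20, 4.65 and 3.79 FPKM in the Nrp-1+ libraries and at 5.16, 4.92, 4.45 and 4.82 FPKM in the Nrp-1- libraries. Replicate 3 of each group lay in the range of the other, and the mean fell by 15.0% (log2 fold change −0.19 ± 0.07, adjusted p = 0.0445). The call was lost without replicate 1, 2 or 4 of either group (adjusted p 0.0723 to 0.105). It was also lost with the replicate number as a block (adjusted p = 0.115). Slc25a28 was at 10.2, 9.54, 10.5 and 10.6 FPKM and 11.5, 11.5, 11.8 and 10.1 FPKM, which overlapped, and did not pass (adjusted p = 0.0913). With the GC and length correction Slc25a28 was called as lower (adjusted p = 0.0325), as were Slc25a36 (adjusted p = 0.0228) and Slc25a35 (adjusted p = 0.0460).

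Among the 7 tested carriers of cofactors and vitamins 1, Slc25a17, was called, beside 40.9% of all genes. It is a peroxisomal member of the family that carries CoA, FAD and NAD. Slc25a17 was at 32.0, 32.7, 35.2 and 32.7 FPKM in the Nrp-1+ libraries and at 28.9, 29.0, 30.7 and 31.0 FPKM in the Nrp-1- libraries, without overlap. The mean rose by 10.9% (log2 fold change 0.14 ± 0.04, adjusted p = 0.0153), and the call did not hold after the GC and length correction (adjusted p = 0.0971). The carriers of S-adenosylmethionine (Slc25a26), folate (Slc25a32), CoA (Slc25a42 and Slc25a16) and NAD (Slc25a51) did not pass the test.

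Slc25a45, a carrier whose substrate is less well established, had the smallest adjusted p of the lower members. It lies at chr19:5877801-5885768 on the build of the promoter windows. Slc25a45 was at 22.3, 21.9, 23.0 and 22.0 FPKM in the Nrp-1+ libraries and at 26.9, 25.4, 26.6 and 25.2 FPKM in the Nrp-1- libraries. The groups did not overlap, and the mean fell by 14.3%, from 26.0 ± 0.869 to 22.3 ± 0.489 FPKM (log2 fold change −0.21 ± 0.03, adjusted p = 0.000687). It stayed called with each library left out (adjusted p at most 0.0031). The outer membrane protein Slc25a46, which acts in mitochondrial dynamics, did not pass, nor did Slc25a35, the acylcarnitine carrier Slc25a20, or the uncoupling-like Slc25a14 and Slc25a30.

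Ratios between paralogues with the same substrate were compared next, since a ratio within a library does not depend on the scaling between libraries. The exact permutation test over 4 and 4 libraries cannot give a p below 0.0286, and p-values were adjusted over the 6 pairs. Slc25a13 was 0.0380 ± 0.00357 (SD, n = 4) of Slc25a12 in the Nrp-1+ libraries and 0.0288 ± 0.000707 in the Nrp-1- libraries, without overlap (exact p = 0.0286, adjusted p = 0.171, two-sided). Aralar was thus the more abundant aspartate-glutamate carrier by 26.5-fold and 34.7-fold. Slc25a5 was 1.89 ± 0.0731 times Slc25a4 in Nrp-1+ iTreg and 1.78 ± 0.0490 times in the Nrp-1- libraries (exact p = 0.0571, adjusted p = 0.171). Slc25a24 over Slc25a25 was 1.35 ± 0.130 and 1.53 ± 0.172 (exact p = 0.143, adjusted p = 0.286). Slc25a28 exceeded Slc25a37 by 2.50-fold and 2.33-fold, Slc25a39 exceeded Slc25a40 by 4.02-fold and 4.37-fold, and Slc25a33 was at 0.105 and 0.116 of Slc25a36, with adjusted exact p-values of 0.371. No ratio passed after adjustment, which does not show that the ratios were equal. With 6 pairs, a single ratio at the lowest possible p of 0.0286 could not have passed by itself.

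Genes that work with the carriers were described by the same fit. Of 12 genes for the import of carriers into the inner membrane, 3 were lower and none was higher (median log2 fold change −0.052, and −0.084 with 4 lower after the GC and length correction), beside 20.0% of all genes called lower. These were the intermembrane chaperone Timm9 (10.5 against 12.3 FPKM, adjusted p = 0.0231), the carrier receptor Tomm70a (34.6 against 37.7 FPKM, adjusted p = 0.00731) and the receptor Tomm20 (46.9 against 51.0 FPKM, adjusted p = 0.0323). Leaving out replicate 2 or 4 of either group ended the call for Tomm20 (adjusted p 0.0650 to 0.0800), and leaving out replicate 1 or 4 of Nrp-1+ iTreg or replicate 1 of Nrp-1- iTreg that for Timm9 (adjusted p 0.0562 to 0.0628). With the replicate number as a block Tomm20 was not called (adjusted p = 0.0972). Of 17 other mitochondrial transport genes tested, 4 were higher and none was lower (median 0.050), beside 20.9% of all genes called higher. Neither count is far from its background. Of the transport genes, 3 were higher with the GC and length correction (median 0.0080) and 2 after quantile normalization. The uncoupling protein family member Ucp2, which is an SLC25 carrier by sequence but not by symbol, was at 181.2 ± 5.41 FPKM in the Nrp-1+ libraries and 153.8 ± 0.272 FPKM in the Nrp-1- libraries, an increase of 17.8% (adjusted p = 0.000123). Mtch1 rose by 17.1%, and the outer membrane channels Vdac3 and Vdac1 by 12.9% and 7.47% (adjusted p = 0.00265, 0.00958 and 0.0333). The call for Vdac1 was lost with the GC and length correction (adjusted p = 0.163) and without replicate 3 or 4 of Nrp-1+ iTreg or replicate 1, 2 or 4 of Nrp-1- iTreg (adjusted p 0.0598 to 0.0852).

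Of 22 enzymes that use the carriers' substrates, 10 were higher in Nrp-1+ iTreg and none was lower (median log2 fold change 0.093), beside a background of 20.9% of genes called higher. With the GC and length correction 8 were higher, after quantile normalization 7, and with the replicate number as a block 7. The list was chosen with earlier results of these data known, so its count is no test against that background. Oat, Mthfd2 and Shmt2 were among the largest increases. Oat, which interconverts ornithine and glutamate semialdehyde, rose by 49.4% (adjusted p = 4.47e-06), while the ornithine carrier Slc25a15 had a log2 fold change of 0.13 (adjusted p = 0.216). Mthfd2 and Shmt2 of mitochondrial folate metabolism rose by 36.7% and 32.4% (adjusted p = 4.59e-06 and 0.000166). The folate carrier Slc25a32 had a log2 fold change of −0.05 (adjusted p = 0.371). Mthfd1l, another enzyme of that metabolism, rose by 8.01% (adjusted p = 0.0261). That call was lost with the GC and length correction (adjusted p = 0.0677) and without any of 5 libraries (adjusted p 0.0522 to 0.0664). For citrate, carrier and enzymes were called in the same direction, with Slc25a1, citrate synthase (Cs, 12.4% higher, adjusted p = 0.00132) and ATP citrate lyase (Acly, 6.24% higher, adjusted p = 0.0242) all higher; these 2 enzymes were picked after their values were seen. The call for Acly was lost with the GC and length correction (adjusted p = 0.116) and without replicate 1 or 2 of Nrp-1+ iTreg or replicate 2 or 3 of Nrp-1- iTreg (adjusted p 0.0550 to 0.0618). Acly was also not called with the replicate number as a block (adjusted p = 0.0527). For acylcarnitine, Cpt1a rose by 20.3% (adjusted p = 5.75e-05), while the carrier Slc25a20 had a log2 fold change of −0.08 (adjusted p = 0.163). Cpt2 and Crat did not pass. In the malate-aspartate shuttle Mdh1 rose by 13.6% (adjusted p = 0.000271), and Mdh2, Got1 and Got2 did not pass. The differences between a carrier and its enzymes were not tested. These enzymes were compared alongside the higher proliferation markers given above, and the part of those in the enzyme results was not tested.

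**Figure D4:**
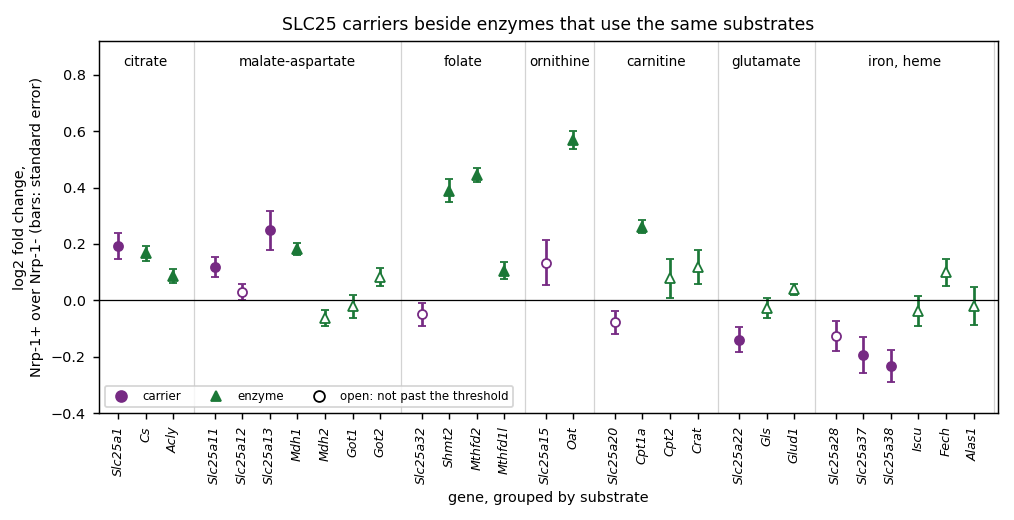
log2 fold change (Nrp-1+ over Nrp-1- iTreg, with its standard error, 4 libraries per group) of carriers (circles) and of enzymes that use the same substrate (triangles), filled where the adjusted p is under 0.05. Mthfd2, Shmt2 and Oat lie far above 0 beside a folate and an ornithine carrier whose values lie at or below 0.13. Mthfd1l, another folate enzyme, lies at 0.11.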

How the data were processed

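RNA from 8 iTreg libraries, 4 Nrp-1+ and 4 Nrp-1-, was sequenced, and groups and numbers come from the labels. Values are FPKM as deposited: the authors used the CLC Genomics Workbench for the reads and Cufflinks for FPKM, with 1 value per gene and library. The submitters' processing notes name the GRCm38 (mm10) build. The labels and the paper name different library kits. Since FPKM are not counts, a count model was not fitted.

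Genes averaging 1 FPKM or more (10467) entered a limma 3.58.1 fit of log2(FPKM + 1) in R 4.3.3 (lmFit, then eBayes with trend), and p-values were adjusted over all of them by Benjamini-Hochberg. Fold changes on this scale understate those of low genes. Exact tests and plots used Python 3.11.15 with numpy 2.4.6, pandas 2.3.3, scipy 1.17.1 and matplotlib 3.10.9. The scripts were tested on simulated data. The members and gene lists were chosen with earlier results of these data known. Library values were given for called members (up to 10 per direction), members of the 6 paralogue pairs and the 4 highest members. From each partner list up to 4 called genes with the largest change were named. Further enzymes of the citrate, carnitine, folate and malate-aspartate groups were named after their values were seen. Members under the filter were named if a library reached 0.5 FPKM.

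Relative depth was read from steps between values under 0.3 FPKM, and fragments from GENCODE M21 transcript lengths, which also gave shared 50-base stretches, so fragment numbers are approximate. Promoter windows came from RefSeq (GRCm38.p6). Alternatives were other pseudocounts, filters, scalings, variance models, a replicate block, removal of short RNA genes, a GC and length correction (natural splines, 5 degrees of freedom), each library left out and, added after the data were seen, the 3 libraries rich in short RNA left out. For 2 genes no values are given or drawn here, though counts include them. nTreg libraries were not analysed here.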

Additional observations from a re-analysis of the deposited data

Results flagged for a closer look

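Libraries far from the other 3 of their group were searched for in 84 groups of values, of which chance would mark about 4.2, and 3 were found. Slc25a38 stood at 8.64 FPKM in Nrp-1+ replicate 4 and at 10.1 to 10.4 FPKM in the other 3. Slc25a33 reached 2.08 FPKM in Nrp-1- replicate 3 and 1.67 to 1.72 FPKM in the other 3. The relative depth of Nrp-1+ replicate 3 was 1.21, and those of its group's other 3 libraries lay between 0.989 and 1.00. The causes of these values were not tested. The call for Slc25a38 held with each library left out, at an adjusted p of at most 0.0330.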

How the results depend on the processing

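Against 12 called carriers (7 higher, 5 lower), the count of lower carriers was 2 without a filter (Slc25a22, Slc25a37 and Slc25a29 were lost), 3 with a filter at 5 FPKM, which tests fewer genes, and 9 after the GC and length correction. Higher carriers numbered 4 after quantile normalization, where Slc25a11, Slc25a17, Slc25a13 and the lower Slc25a29 were lost, and 3 with the replicate block together with the GC and length correction. The 0.020 median log2 fold change of carriers was 0.0081 without a filter, 0.0035 after quantile normalization, and −0.023 with the GC and length correction, alone and with the replicate block, which turned its sign. The partner lists held 11 calls after quantile normalization and 17 before. Without the 3 libraries rich in short RNA, a comparison of 2 and 3 libraries chosen after seeing the data, 5 carriers were called (2 higher, 3 lower) and the median was 0.0055. Leaving out 1 library at a time gave 8 to 11 called carriers, 5 to 7 higher and 2 to 4 lower, with medians from 0.014 to 0.046, and 7 of the 12 calls held in all of these fits. With the replicate block, 7 carriers were higher and 4 lower; Slc25a37, Slc25a29 and Slc25a13 were lost, and Slc25a36 and Slc25a40 were added. Same-numbered libraries did not deviate together (correlations from −0.537 to 0.0104, and −0.107 to −0.0357 without short RNA genes). None correlated best with its own number. With 4 numbers this cannot settle whether same-numbered libraries shared a culture, which the labels do not say. No called carrier reversed its direction in these fits. The causes were not tested. Depth limits carriers under 1 FPKM.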
